A study of Homo sapiens with 4 samples.

Results

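The genes described here are L1CAM and 9 other genes of cell adhesion molecules that carry immunoglobulin domains, namely VCAM1, ICAM1, ICAM2, ALCAM, NCAM1, CHL1, NRCAM, MCAM and JAM3. They are 10 of the 61541 genes in a table of expected read counts from MHCC97H cells, an established human hepatocellular carcinoma (HCC) line. The members were listed by name, but L1CAM and VCAM1 were chosen by their read counts, which were much higher in shUBXN1 than in shCon, so their differences are given as a description with no test. The study compared control cells carrying a control short hairpin RNA (shCon, 2 libraries) with cells carrying a hairpin against UBXN1 (shUBXN1, 2 libraries), to find the genes that depend on UBXN1. All 4 libraries share the same cell line, tissue label (liver) and library kit. The sample labels call the control shCon whereas the methods call it shRFP, and which UBXN1 hairpin the sequenced cells carried is not named. Nothing in the labels says that replicates came from separate cultures, so p-values measure the spread between these libraries, which may be technical.

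Adhesion molecules of the immunoglobulin superfamily sit in the plasma membrane and bind partners on neighbouring cells through their outer immunoglobulin domains. L1CAM, NRCAM and CHL1 form the L1 family, best known for axon growth, and their cytoplasmic tails bind ankyrins, which link them to the spectrin skeleton. VCAM1, ICAM1 and ICAM2 are ligands of leukocyte integrins and are best known from endothelium, where inflammatory cytokines raise VCAM1 and ICAM1 through NF-κB. ALCAM, MCAM and NCAM1 are adhesion molecules found on many cell types and on tumor cells, and JAM3 is a junctional adhesion molecule.

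Stretches before the annotated start sites of the 4 members with the larger rises or with textbook NF-κB sites are shown because these letters can be set beside the values that follow. The sequences were read from RefSeq promoters on GRCh38.p14, which held 7 of the 10 members (not ICAM2, NCAM1 and JAM3), and each ran 5′ to 3′ on the strand of the gene. Capitals mark matches to the motifs searched on both strands, which were 2 forms of the NF-κB site (GGG and CCC with 4 bases between them, and GGAANTTCC), the TATA box TATAAA, the GC box GGGCGG and the AP-1 site TGANTCA. Positions count back from the start site, whose last preceding base is -1.
VCAM1: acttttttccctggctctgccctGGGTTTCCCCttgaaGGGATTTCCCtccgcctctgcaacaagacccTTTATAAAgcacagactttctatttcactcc
ICAM1: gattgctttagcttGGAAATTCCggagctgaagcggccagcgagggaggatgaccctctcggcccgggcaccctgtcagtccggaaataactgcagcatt
L1CAM: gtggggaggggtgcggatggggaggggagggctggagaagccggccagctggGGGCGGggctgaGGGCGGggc
MCAM: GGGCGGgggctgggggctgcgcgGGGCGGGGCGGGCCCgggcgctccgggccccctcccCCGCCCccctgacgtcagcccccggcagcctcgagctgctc

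The VCAM1 stretch lies just before the gene at chr1:100719642-100719741 on the plus strand and holds the symmetric NF-κB form at -77 and again at -62, with overlapping TATA matches at -31 and -29. The ICAM1 stretch, at chr19:10270920-10271019 on the plus strand before the gene, holds the central NF-κB form at -186. The L1CAM stretch is at chrX:153876041-153876113 on the minus strand, before the upstream of its 2 RefSeq start sites and within an intron of longer GENCODE transcripts, and holds GC boxes at -47 and -35, with a symmetric NF-κB match at -17, after its end. The MCAM stretch, at chr11:119317131-119317230 on the minus strand and also in an intron of longer transcripts, holds GC boxes at -100, -77, -72 and -41, of which those at -77 and -72 overlap a symmetric NF-κB match at -72. Outside the printed stretches, the symmetric form was also matched in MCAM at -129 and 32 and at -229 of a start site of NRCAM, which fell, whereas the windows of ALCAM and CHL1 held neither NF-κB form. Of 35116 promoter windows of 300 bases, 17.8% held the symmetric NF-κB form, 0.965% the central form, 11.5% the TATA box, 45% the GC box and 7.71% the AP-1 site, and the central form was thus the least common. A match describes letters and does not show binding.

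The libraries held 23373700 to 27380508 counts. UBXN1 itself was at 1788 and 1817 counts in the shCon pair and at 416 and 433 in the shUBXN1 pair, which left 24.5% of the control level after scaling. Of the 10 members, 8 passed the filter on low counts. NCAM1 was at 0 and 2 counts in the shCon pair and at 0 and 1.91 in the shUBXN1 pair, and CHL1 had 0 counts in all 4 libraries, which allows a level of up to 0.128 CPM (TMM-scaled counts-per-million), counting error only. No change could be detected for NCAM1 and CHL1 at this depth.

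Within the L1 family, L1CAM was near silent in control cells and clearly expressed in UBXN1-knockdown cells. NRCAM, like ALCAM among the most abundant members in control cells, fell slightly. L1CAM (ENSG00000198910, X chromosome, 153861514 to 153886173 on the minus strand of GRCh38, 29 exons in its canonical transcript) had 34 and 27 counts in the shCon pair and 1374 and 1236 in the shUBXN1 pair. Every shUBXN1 library was therefore far above both shCon libraries, and the log2 fold change was 5.47 (SE 0.135), or 44.4-fold after scaling. More RNA per cell and a larger share of cells with a transcript cannot be told apart in such bulk libraries. The antisense gene L1CAM-AS1 and a same-strand gene that share exon bases with it had 0 counts in all 4 libraries. NRCAM (ENSG00000091129, chromosome 7, 108147623 to 108456717, minus strand), which like L1CAM binds ankyrin through its tail, had 10536 and 9166 counts in the shCon pair and 7378 and 7373 in the shUBXN1 pair. Both shUBXN1 libraries were lower also after scaling, at 393 ± 3.54 CPM in shCon and 307 ± 11.9 CPM in shUBXN1 (mean ± SD of 2 libraries). NRCAM fell by 0.36 on the log2 scale (SE 0.0748), with an adjusted p of 9.67e-04 in the quasi-likelihood test of edgeR. The ratio of L1CAM to NRCAM in TPM (transcripts-per-million) was 0.00421 and 0.00384 in shCon and 0.243 and 0.219 in shUBXN1, so that NRCAM stayed the more abundant of the pair in each library.

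**Figure D1:**
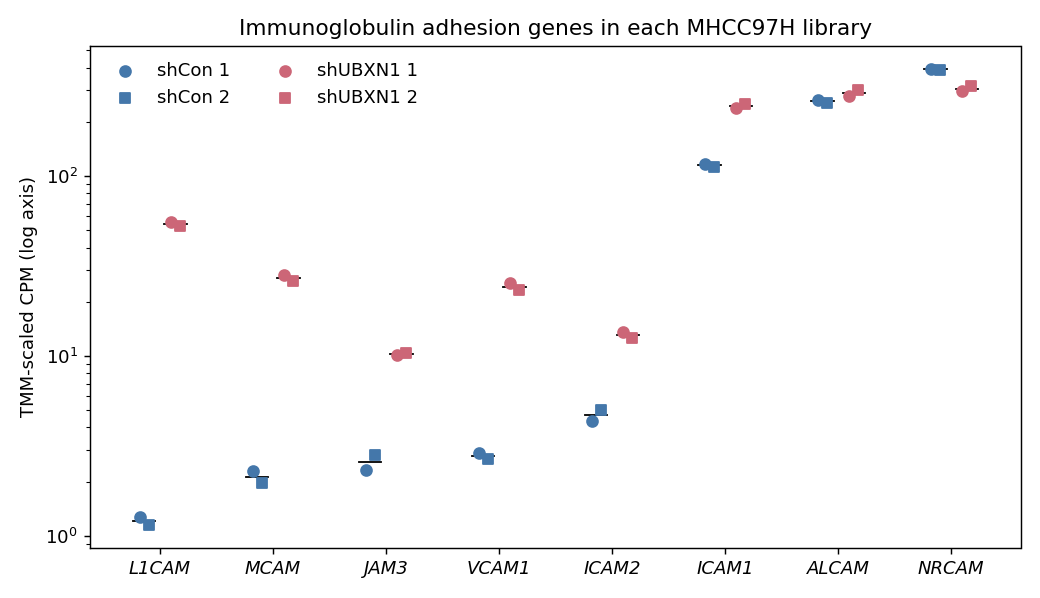
TMM-scaled CPM (log axis) of the 8 genes that passed the filter on low counts, in each of the 4 libraries, with circles and squares for replicates 1 and 2 and a short line for the mean of each group. L1CAM had the lowest level of the 8 genes in shCon (1.21 CPM) and was at 54.2 CPM in shUBXN1. CPM is not divided by gene length, so the heights of different genes cannot be ranked here.

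Among the integrin ligands, VCAM1 had the larger difference, whereas ICAM1 was far more abundant and rose about 2-fold. VCAM1 (ENSG00000162692, chromosome 1, 100719742 to 100739045, plus strand), a ligand of the integrin α4β1, had 77 and 63 counts in the shCon pair and 630 and 541 in the shUBXN1 pair. Its log2 fold change was 3.12 (SE 0.144), or 8.69-fold, with no overlap between the groups. ICAM1 (ENSG00000090339, chromosome 19, 10271093 to 10286615, plus strand), a ligand of the leukocyte integrins LFA-1 and Mac-1, had 3124.75 and 2629.9 counts in the shCon pair and 5942.82 and 5897.01 in the shUBXN1 pair. The scaled level rose from 115 ± 3.72 to 246 ± 8.31 CPM (mean ± SD of 2 libraries each). This was a log2 fold change of 1.10 (SE 0.0742), with an adjusted p of 2.50e-08 in the edgeR test. With each library's trend on GC content removed, the log2 fold change of ICAM1 was 0.91, still past the adjusted threshold but below 2-fold. ICAM2 (ENSG00000108622, chromosome 17, 64002594 to 64020634, minus strand), another LFA-1 ligand, had 115.67 and 116.71 counts in the shCon pair and 333.54 and 294.8 in the shUBXN1 pair. ICAM2 rose 2.80-fold, or by 1.49 on the log2 scale (SE 0.157), with an adjusted p of 1.96e-06 in the edgeR test. The antisense gene PRR29 covers 26.8% of the exon bases of ICAM2 and was itself at 37.33 and 21.29 counts in the shCon pair and at 149.46 and 111.2 in the shUBXN1 pair. Since the use of strand in counting is not given in the sources used here, reads of ICAM2 and PRR29 may not be told apart. For ICAM1 the antisense gene ICAM4-AS1 covers 23.6% of the exon bases but held at most 8.87 counts in a library.

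MCAM showed the largest rise among the members that were not picked for it, and ALCAM was nearly level. MCAM (ENSG00000076706, chromosome 11, 119308529 to 119321521, minus strand), also known as CD146, a melanoma and endothelial adhesion molecule that binds laminin α4, had 61 and 46 counts in the shCon pair and 693 and 614 in the shUBXN1 pair. Both shUBXN1 libraries were more than 10-fold above the shCon libraries, and MCAM rose from 2.12 ± 0.233 to 27.1 ± 1.26 CPM (mean ± SD of 2 libraries each). The rise was 12.7-fold, or 3.67 on the log2 scale (SE 0.147), with an adjusted p of 2.09e-10 in the edgeR test, which ranked MCAM as 118 of the 16863 genes tested when ordered by rise. The neighbouring gene CBL on the other strand covers 6.86% of the exon bases of MCAM and was more abundant. CBL had 1801 and 1495 counts in the shCon pair and 2539 and 2105 in the shUBXN1 pair. CBL was thus higher where MCAM was higher, and how reads of CBL entered the counts of MCAM was not tested. ALCAM (ENSG00000170017, chromosome 3, 105366909 to 105576900, plus strand), also known as CD166 and a ligand of CD6 on T cells, had 7104 and 5979 counts in the shCon pair and 6926 and 7023 in the shUBXN1 pair. After scaling both shUBXN1 libraries lay above both shCon libraries, at 290 ± 14.2 against 260 ± 8.45 CPM (mean ± SD of 2 libraries each). The log2 fold change of 0.15 (SE 0.0755) did not pass the threshold, with an adjusted p of 0.0965 in the edgeR test. ALCAM passed it under 5 of 12 alternative settings, with log2 fold changes from 0.089 to 0.24 over all 12.

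JAM3 (ENSG00000166086, chromosome 11, 134069071 to 134152001, plus strand), whose protein binds JAM2 and the leukocyte integrin Mac-1, had 62.47 and 66.2 counts in the shCon pair and 251.22 and 241.78 in the shUBXN1 pair. It rose 3.99-fold, with an SE of 0.191 on the log2 scale, an adjusted p of 7.36e-07 in the edgeR test and no overlap between the groups. The condensin gene NCAPD3 on the other strand covers 35.6% of the exon bases of JAM3 and was far more abundant, with 4997.07 and 4241.44 counts in the shCon pair and 3040.96 and 2902.55 in the shUBXN1 pair. NCAPD3 was thus lower where JAM3 was higher, and how its reads entered the counts of JAM3 was not tested.

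**Figure D2:**
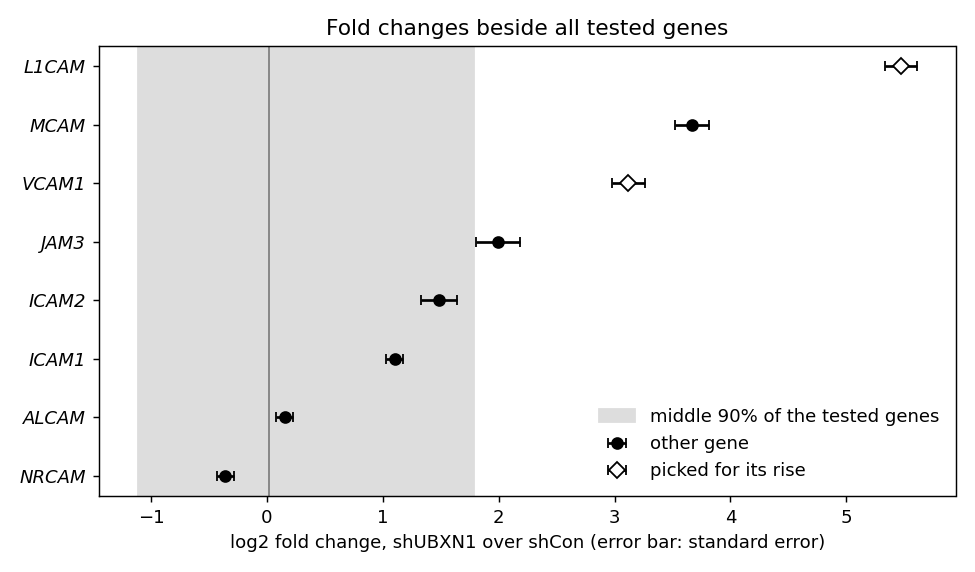
Log2 fold changes of shUBXN1 over shCon with standard errors for the 8 genes tested, with open diamonds for the genes picked for their rise, and in grey the range that holds the middle 90% of all 16863 genes tested (-1.11 to 1.79). L1CAM, MCAM, VCAM1 and JAM3 lay above the grey range, and ICAM2, ICAM1, ALCAM and NRCAM lay within it.

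Of the 8 members that were not picked for their rise, 4 (ICAM1, ICAM2, MCAM and JAM3) rose and 1 (NRCAM) fell at an adjusted p under 0.05, where 28.0% of all genes tested rose and 28.2% fell. ALCAM did not pass, and NCAM1 and CHL1 were not tested. The same 4 rose at least 2-fold at an unadjusted p under 0.05, the thresholds of the study, and none fell by as much. At these thresholds 11.8% of all genes tested were higher and 6.09% lower. The study used limma for its calls, whereas the calls and shares here are from edgeR. The unadjusted p of the 5 members that passed was 2.89e-04 or less in edgeR's quasi-likelihood test, and ALCAM was at 0.0601. Genes called at least 2-fold higher were 9.49% of the 5741 genes with a mean log2 CPM from 2 to 5. This range holds L1CAM, VCAM1, ICAM2, MCAM and JAM3. They were 1.94% of the 1342 genes from 7 to 9, the range that holds ICAM1, ALCAM and NRCAM. The mean was taken over both groups, so a rise itself moves a gene to a higher range. In shCon alone, L1CAM was at 1.21 CPM and MCAM at 2.12 CPM. With the GC trend removed, the share of 2-fold calls over all genes that were higher went from 66% to 55.7%, and 3 of the 4 members stayed above 2-fold.

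The differences changed the make-up of these transcripts. On the TPM scale, which divides counts by gene length and so allows genes to be compared, control cells carried NRCAM at 115 and 120 TPM, ALCAM at 107 and 115 TPM and ICAM1 at 74.5 and 80.4 TPM, with NRCAM and ALCAM overlapping. ICAM2 followed at 6.62 and 7.36 TPM, VCAM1 at 1.71 and 1.90 TPM, JAM3 at 1.27 and 1.48 TPM, MCAM at 1.16 and 1.40 TPM and L1CAM at 0.442 and 0.505 TPM, where only JAM3 and MCAM overlapped. In UBXN1-knockdown cells ICAM1 was the most abundant, at 171 and 175 TPM, above ALCAM at 128 and 129 TPM and NRCAM at 94.6 and 96.4 TPM. L1CAM at 20.7 and 23.4 TPM then overlapped ICAM2 at 19 and 21.9 TPM, MCAM at 15.9 and 18.2 TPM overlapped VCAM1 at 15 and 17.8 TPM, and JAM3 came last at 5.52 and 5.84 TPM. The sum over the 10 members was 327 and 309 TPM in shCon and 488 and 470 TPM in shUBXN1. L1CAM made up 0.154% and 0.143% of this sum in shCon and 4.8% and 4.4% in shUBXN1, and NRCAM went from 36.7% and 37.3% to 19.8% and 20.1%. The ratio of ICAM1 to NRCAM in TPM was 0.67 and 0.648 in shCon and 1.82 and 1.81 in shUBXN1, and that of VCAM1 to ICAM1 was 0.0236 and 0.0229 against 0.101 and 0.0878.

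A list of 44 other adhesion genes with immunoglobulin domains had a median log2 fold change of -0.13 against 0.016 for all genes tested. Of its 27 genes that passed the filter, 7 rose, 9 fell and 11 did not pass an adjusted p of 0.05. Here and for the lists below, the shares over all genes tested were 28.0% higher and 28.2% lower at this threshold. For the 2-fold call they were 11.8% higher and 6.09% lower. CADM4, a nectin-like adhesion molecule, was the sole gene of this list called at least 2-fold higher, with 95 and 99 counts in the shCon pair and 501 and 489 in the shUBXN1 pair (log2 fold change 2.41, adjusted p = 7.39e-09 in the edgeR test). MPZL2, an epithelial adhesion molecule, and ROBO1, a receptor of SLIT guidance cues, were among the 3 genes called at least 2-fold lower. Their log2 fold changes were -1.34 and -1.11. Among the closest relatives of the members, F11R, also called JAM1, fell with a log2 fold change of -0.52, ICAM3 was at -0.28 without passing, and NFASC, the remaining L1 family gene, had at most 12 counts in a library.

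Several integrin chains that bind the members rose in the same libraries. Of 12 such chains, 9 passed the filter, of which 5 rose, 1 fell and 3 did not pass. ITGB3, the β3 chain that pairs with αV to bind L1CAM, had 31.25 and 28 counts in the shCon pair and 271.51 and 229 in the shUBXN1 pair, a log2 fold change of 3.14. Its partner ITGAV was much more abundant and rose about 2-fold, from 9795 and 8298 counts to 17470.97 and 17145 counts (log2 fold change 0.997). ITGB2, the β2 chain of the leukocyte integrins that bind ICAM1 and ICAM2, had 31.36 and 30 counts in the shCon pair and 225.45 and 233 in the shUBXN1 pair (log2 fold change 2.96), and ITGAX, one of its α chains, had a log2 fold change of 1.05. ITGAM, the α chain of Mac-1, had 233 and 180 counts in the shCon pair and 155 and 146 in the shUBXN1 pair, a log2 fold change of -0.39 that did not pass. ITGAL, the α chain of LFA-1, was at 4 to 12.03 counts, and ITGA4, the α4 chain of the VCAM1 receptor, had 0 counts in all 4 libraries. ITGB1, which pairs with α4 and α5, fell slightly (log2 fold change -0.26).

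Of 20 other partners and cytoplasmic linkers, 5 rose and 7 fell among the 15 that passed the filter. ANK3, which encodes ankyrin-G, fell from 1015.12 and 844 counts to 283 and 265 counts (log2 fold change -1.70), and ANK2 fell with a log2 fold change of -0.84, while ANK1 was at -0.19 without passing. The spectrin genes SPTBN1 and SPTAN1 rose slightly, with log2 fold changes of 0.27 and 0.24. SEMA3A, the guidance ligand whose receptor complex can hold L1CAM, fell (-1.10), as did its receptor gene NRP1 (-0.51). LAMA4, the gene of the laminin chain that MCAM binds, rose slightly (0.21), and the laminin gene LAMA5 rose more (1.01). Of the linkers of the ezrin family, EZR and RDX fell with log2 fold changes of -0.51 and -0.62, and MSN was at -0.14 without passing.

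Proteases that cut adhesion molecules at the cell surface passed the filter in 10 of 10 cases, with 7 that rose and 2 that fell. ADAM10 and ADAM17, the main sheddases of L1CAM and of VCAM1, rose with log2 fold changes of 0.65 and 0.84. BACE2 was the sole gene of this list called 2-fold lower, with a log2 fold change of -1.29, and NCSTN, a subunit of γ-secretase, fell (-0.73) while its partners APH1A and PSENEN rose (0.37 and 0.75).

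Among 13 genes of the NF-κB and IRF factors and cytokine receptors that act on VCAM1 and ICAM1, 6 rose, 3 fell and 4 did not pass. TNFRSF1B, a TNF receptor, was called 2-fold higher, with 201 and 194 counts in the shCon pair and 567 and 542.41 in the shUBXN1 pair (log2 fold change 1.55). The inhibitor NFKBIA and the factor IRF1 rose less, with log2 fold changes of 0.69 and 0.62, whereas the main TNF receptor TNFRSF1A and the interleukin-1 receptor IL1R1 fell (-0.58 and -0.38). Of the NF-κB subunit genes, RELA, RELB and NFKB2 rose slightly (0.31, 0.31 and 0.355). NFKB1 fell slightly (-0.21), and REL was at 0.22 without passing. Of 13 genes reported to regulate L1CAM, 4 rose and 4 fell among 11 that passed the filter. The repressor REST rose slightly (0.26) and SNAI2, also called Slug, rose (0.85). TCF7L2 and TCF7, which carry Wnt signals to DNA with β-catenin, fell with log2 fold changes of -0.71 and -1.14. CTNNB1, the gene of β-catenin, fell with -0.33. Of the TGF-β pathway genes in this list, TGFBR1 and TGFB1 rose (0.56 and 0.26) and TGFBR2 fell slightly (-0.19). SMAD3 was at 0.091 without passing.

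**Figure D3:**
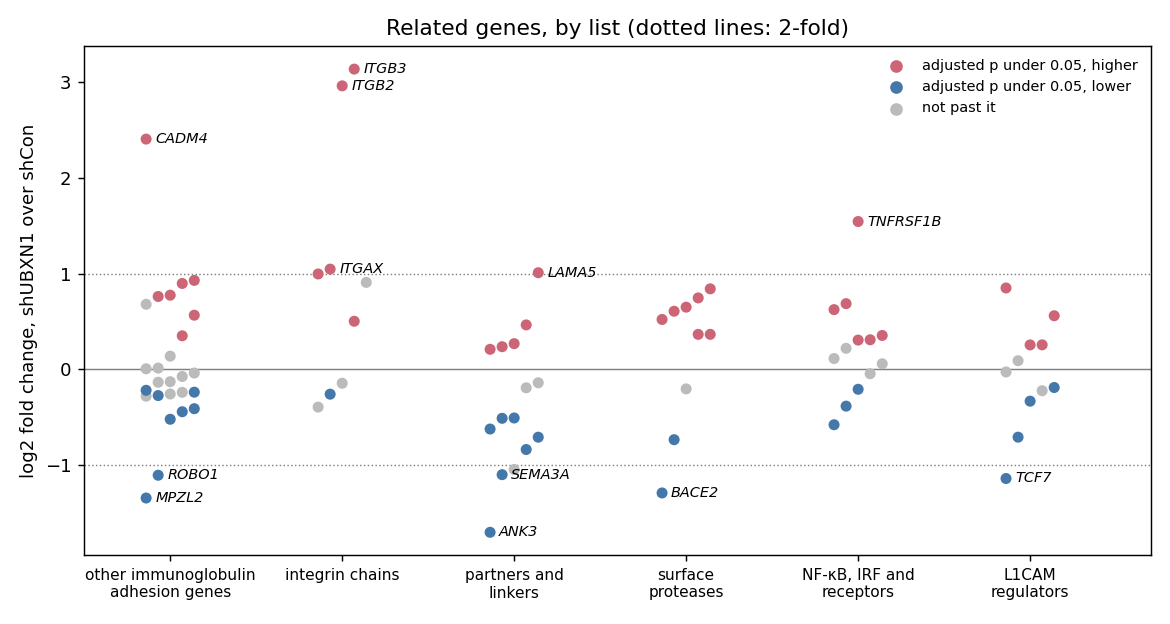
Log2 fold changes of shUBXN1 over shCon for the genes of 6 related lists that passed the filter on low counts, less 1 gene not reported here, colored by whether the adjusted p was under 0.05, with dotted lines at a 2-fold change and names for genes past it at an unadjusted p under 0.05. The integrin list had the largest rises (ITGB3 at 3.14 and ITGB2 at 2.96), and the other immunoglobulin adhesion genes spread to both sides.

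Because VCAM1, MCAM, ICAM2 and L1CAM are also markers of endothelial or neural cells, marker lists were read in the same libraries. Hepatocyte and HCC markers summed to 4422 and 4591 CPM in shCon and 3472 and 4064 CPM in shUBXN1, most of it KRT8 and KRT18. ALB had 479 and 403 counts in the shCon pair and 104 and 112 in the shUBXN1 pair, and GPC3 had 0 counts, and 7 of the 11 tested markers fell while 2 rose. The 8 endothelial markers summed to 48.6 and 50.3 CPM in shCon and to 92.8 and 99.9 CPM in shUBXN1. Most of this sum came from KDR (389 and 371 against 1192 and 1324 counts) and PECAM1 (890 and 779 against 1065 and 979.68 counts), VWF had 9 and 17 against 34 and 25 counts without passing, and EMCN was at 0, while ERG, CLDN5 and CDH5 had at most 6 counts and TEK at most 11 counts in a library. The 8 neuronal markers summed to 135 and 145 CPM in shCon and 136 and 155 CPM in shUBXN1, most of it TUBB3 (2055.09 and 2025.77 against 1956.53 and 2227.37 counts) and MAP2 (1063 and 957 against 1064 and 1097 counts), neither of which passed. SYT1 was the sole called neuronal marker and fell from 383.79 and 349 to 252.14 and 245 counts (log2 fold change -0.50), while STMN2 was at 0 and RBFOX3 and GAP43 at 3 counts or less. The 8 leukocyte markers summed to 92.2 to 100.4 CPM in all 4 libraries, most of it CD68, which fell slightly (log2 fold change -0.25). In the same list CD79A rose from 8.1 and 10.7 to 21.5 and 21.9 CPM (log2 fold change 1.21) and LYZ fell from 15.04 and 12.09 to 4.09 and 3.84 counts, with CD3E at 0 and PTPRC at 4 counts or less. The 8 stromal markers summed to 33.3 and 33.8 CPM in shCon and to 17.4 and 20 CPM in shUBXN1, most of it LUM, which fell from 844 and 758 to 345 and 390 counts (log2 fold change -1.06). DCN fell from 17 and 13 to 2 and 1 counts, COL1A1 rose from 10 and 4 to 58 and 59 counts, and PDGFRA was at 0. The part of these marker differences in the rises of the members was not tested.

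The genes next to L1CAM and VCAM1 were read as well. On the lower side of L1CAM, PDZD4 had 2 and 2 counts in the shCon pair and 15 and 29 in the shUBXN1 pair. From these low counts PDZD4 rose with a log2 fold change of 3.445 (adjusted p = 8.68e-04 in the edgeR test). SSR4 rose slightly (log2 fold change 0.45), while CYCSP45 had 0 counts. On the higher side, beyond the overlapping genes, AVPR2 had 3 and 0 counts in the shCon pair and 19 and 9 in the shUBXN1 pair. Around VCAM1, EXTL2 rose slightly (0.43), SLC30A7 was at -0.0078 without passing, and the 3 nearest genes on the lower side had 0 counts. Also on the higher side, ENSG00000273204 had 7 and 2 counts in the shCon pair and 3 and 17.04 in the shUBXN1 pair. The 5 genes whose levels over the 4 libraries lay nearest to the pattern of L1CAM, by Euclidean distance on centred log2(CPM + 1), were B3GNT7 (distance 0.994), EPPK1 (1.09), GCGR (1.16), RPE65 (1.21) and TBC1D10C (1.33). The nearest to VCAM1 were SMARCD3 (0.106), IFITM10 (0.117), SERPINA3 (0.152), CYP2E1 (0.16) and CNTNAP1 (0.164). With 4 libraries in 2 groups, this distance reflects mainly the size of the difference between the groups.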

How the data were processed

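The authors deposited expected counts per gene, not normalized, with a gene length, for 2 shCon and 2 shUBXN1 libraries of MHCC97H cells. The submitters' processing notes name HISAT2 2.0.4, StringTie 1.3.0 and GRCh37, whereas the methods name Hisat2 and GRCh38. The counting tool, annotation release and use of strand are not given in the sources used here. Of 61541 Ensembl IDs, 99.7% matched a GENCODE symbol, and positions are those of GENCODE on GRCh38. Between replicates, chi-square per degree of freedom was 3.65 in shCon and 7.77 in shUBXN1, so that no library was a copy of another.

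Counts were rounded, filtered with filterByExpr, scaled with TMM and tested in edgeR 4.0.16 (glmQLFit, glmQLFTest, R 4.3.3) without a block over 16863 genes, with Benjamini-Hochberg adjustment. Standard errors are the log2 fold change divided by the root of F. TPM was computed from the deposited counts and lengths. The test was checked on simulated counts. Members and lists were chosen with earlier results of these data known. Named genes were all members, the largest changes past 2-fold in each list with regulators and receptors of the members, the 3 genes on each side of L1CAM and VCAM1 and the 5 nearest patterns, while F11R, ICAM3, NFASC and further genes of the partner and protease lists were chosen after their values were seen. In all, 1 further gene of the lists is counted but not reported here. Alternatives were DESeq2 1.42.0, total count scaling, other filters, limma 3.58.1 on log2(TPM + 1), a replicate block, leaving out each library and, added after seeing the data, removal of the GC trend with and without the block.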

Additional observations from a re-analysis of the deposited data

How the results depend on the processing

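Over 12 alternative settings, 4 or 5 of the 8 members not picked for their rise passed as higher and 1 as lower, and 3 or 4 were at least 2-fold higher and 0 lower, where 3 was the count with the GC trend removed (ICAM1 at 0.91), a setting chosen after seeing the data. With the replicate number as a block the counts were 4 higher and 1 lower, and 4 at least 2-fold higher, and the block changed no call of a member, except that with the GC trend removed ALCAM had an adjusted p of 0.0656 without the block and 0.0415 with it in the edgeR test. The deviations of same-numbered libraries correlated with r = 0.0393 across genes, and the labels do not say that the numbers mark a shared batch. Among the other immunoglobulin adhesion genes, the count of 2-fold rises went from 1 to 2 with total count scaling and with no filter on low counts, and was 1 to 2 with each library left out (2 without the first shCon library and without the second shUBXN1 library). The count of 2-fold falls went from 3 to 1 under limma on log2(TPM + 1) and was 2 to 3 with each library left out. The cause was not tested. Over all genes, the 2-fold calls were 1997 higher and 1027 lower, against 1028 and 524 under limma on log2(TPM + 1), 1321 and 746 among genes with at least 10 counts in every library, and 1715 and 1366 with the GC trend removed. No tested member reversed its direction. With each library left out, log2 fold changes were 5.39 to 5.55 for L1CAM, 3.05 to 3.18 for VCAM1, 3.55 to 3.79 for MCAM, 1.86 to 2.12 for JAM3, 1.39 to 1.57 for ICAM2, 1.05 to 1.14 for ICAM1, 0.089 to 0.20 for ALCAM and -0.41 to -0.32 for NRCAM. Under limma on log2(TPM + 1), whose pseudocount shrinks low genes, L1CAM was at 3.97, VCAM1 at 2.63 and MCAM at 2.98. Total count scaling moved the median of all genes from 0.016 to 0.10 and raised ALCAM to 0.24, past the threshold. Low control counts limit how well the folds of L1CAM, MCAM, VCAM1 and JAM3 are known.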
